A study of Mus musculus with 8 samples.

Results

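The genes described are 9 chemokines that attract or act on neutrophils and T cells, namely *Cxcl1*, *Cxcl2*, *Cxcl3*, *Cxcl9*, *Cxcl10*, *Cxcl11*, *Cxcl14*, *Cxcl16* and *Pf4* (*Cxcl4*). They were taken as a fixed list of symbols from the 32285 genes of the count tables. No cutoff on their values was used, but earlier results of these data were known. Of the 9 symbols, 8 were found, and *Cxcl11* was not analysed here. Their RNA was followed in single CD45+ cells of E0771 tumors, a C57BL/6 mouse mammary carcinoma line grown orthotopically in female mice and collected on day 18. The parental group held 2 mice with tumors of the unselected line. The E0771-Res1 and E0771-Res2 groups held 3 mice each with tumors of 2 derivative lines, each established from an E0771 tumor that had relapsed after paclitaxel with anti–PD-1, so that a line stands for 1 relapse. No drug given to the sampled mice is named in the sources used here. Another parental mouse was not analysed here.

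CXC chemokines are small secreted proteins that bind G protein–coupled receptors. *Cxcl1*, *Cxcl2* and *Cxcl3* encode ligands of CXCR2, the main chemotactic receptor of neutrophils, and are classic NF-κB targets of activated macrophages and monocytes. *Cxcl9* and *Cxcl10* encode the interferon-induced ligands of CXCR3, which is carried by activated T cells and NK cells, while *Cxcl16* encodes a transmembrane ligand of CXCR6 that ADAM10 and ADAM17 can shed. *Pf4* is best known as a platelet granule chemokine and is also made by tissue macrophages, and *Cxcl14* is mostly an epithelial and stromal chemokine.

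In the annotation of build GRCm38, 6 of the 8 genes found lie on chromosome 5 in 2 clusters. *Pf4* (90772435 to 90773383), *Cxcl3* (90786103 to 90789600), *Cxcl1* (90891241 to 90893115) and *Cxcl2* (90903871 to 90905938) are on the plus strand, and *Cxcl9* (92321347 to 92328079) and *Cxcl10* (92346638 to 92348889) on the minus strand. *Cxcl16* is on chromosome 11 (70453983 to 70459984) and *Cxcl14* on chromosome 13 (56288643 to 56296551). The sequences just before the starts of *Cxcl1*, *Cxcl2*, *Cxcl3*, *Cxcl9* and *Cxcl10* are shown, because they differ between the CXCR2 and CXCR3 ligands. Each line is RefSeq sequence of GRCm38.p6, 200 bases from position -250 to -51 before the RefSeq start, 5′ to 3′ on the strand of the gene. The windows are chr5:90890995-90891194 for *Cxcl1*, chr5:90903649-90903848 for *Cxcl2*, chr5:90785851-90786050 for *Cxcl3*, chr5:92328130-92328329 for *Cxcl9* and chr5:92348940-92349139 for *Cxcl10*. Capitals mark matches on either strand to GGAANNNCC, a short form of the NF-κB motif, and to GAAANNGAA, a short form of the interferon-stimulated response element.
*Cxcl1*: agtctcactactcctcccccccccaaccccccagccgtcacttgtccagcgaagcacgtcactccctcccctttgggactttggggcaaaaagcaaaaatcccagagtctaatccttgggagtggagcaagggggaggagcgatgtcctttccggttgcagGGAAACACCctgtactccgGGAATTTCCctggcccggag
*Cxcl2*: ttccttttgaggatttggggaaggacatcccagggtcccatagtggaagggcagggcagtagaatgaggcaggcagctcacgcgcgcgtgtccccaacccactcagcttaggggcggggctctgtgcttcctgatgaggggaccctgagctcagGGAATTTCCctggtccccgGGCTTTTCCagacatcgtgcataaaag
*Cxcl3*: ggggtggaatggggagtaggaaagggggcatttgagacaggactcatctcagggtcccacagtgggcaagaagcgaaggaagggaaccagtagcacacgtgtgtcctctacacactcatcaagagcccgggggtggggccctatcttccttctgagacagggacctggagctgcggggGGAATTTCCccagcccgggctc
*Cxcl9*: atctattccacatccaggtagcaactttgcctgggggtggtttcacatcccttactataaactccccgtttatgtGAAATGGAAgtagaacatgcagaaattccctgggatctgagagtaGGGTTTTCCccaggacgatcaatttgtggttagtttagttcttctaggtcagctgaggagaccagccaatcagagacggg
*Cxcl10*: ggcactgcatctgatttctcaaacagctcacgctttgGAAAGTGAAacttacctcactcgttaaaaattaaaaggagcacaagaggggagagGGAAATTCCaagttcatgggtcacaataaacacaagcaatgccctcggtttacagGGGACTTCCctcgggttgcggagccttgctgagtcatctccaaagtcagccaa
All 3 CXCR2 ligand windows held the NF-κB form between positions -96 and -62 and none held the interferon form. *Cxcl9* and *Cxcl10* held both forms. Among 32851 windows of the same length before mouse genes, 12.1% held the NF-κB form, 5.79% the interferon form and 0.661% both. Another form, TTCNNNGAA (GAS, 5.76% of windows), was found for *Cxcl14* only, which also held the interferon form, and the *Pf4* window held none of the 3. The motifs were chosen with these windows known, no overlap between matches occurred, and a match is a run of letters and not a measured binding site. RefSeq windows were read for 7 of the 9 genes.

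The tables held 11430 cells, of which 10605 were kept (500 to 6000 genes and under 10% mitochondrial counts), 604 to 2020 per mouse. The median depth was 5589 to 8160 unique molecular identifiers (UMIs) per kept cell and was lowest in E0771-Res2 (5589 to 7001). No barcode was shared between mice, and mice within a group differed beyond counting noise (chi-square divided by its degrees of freedom, 2.66 to 12.4). Cells were split by marker UMIs into 711 lymphoid cells, 232 *Ccr7*+ dendritic cells and myeloid cells with at least 10 (2536 cells), 2 to 9 (2141) or at most 1 (4812) UMIs of *C1qa*, a complement gene of macrophages. Markers outside the gates sat where the names say. Macrophage *C1qb* was at 49.5 UMIs per 10000 in C1qa ≥10 cells against 2.18 in C1qa ≤1 cells, the monocyte gene *Plac8* at 5.87 against 35.8, and mature dendritic *Ccl22* at 4.32 in *Ccr7*+ cells against 0.0735 in all myeloid cells. Of the neutrophil markers, *Ngp* had 0 UMIs, *Camp* 1, *Mmp9* 99, *Retnlg* 110, *Mmp8* 1329, *S100a8* 1383, *S100a9* 2324 and *Csf3r* 5136 in all kept cells. *S100a8* was at 81.8 per 10000 in 23 C1qa ≤1 cells with neutrophil markers against 0.0257 in 3875 with monocyte markers. The 23 cells were picked by a sum of neutrophil markers that includes *S100a8*, so this difference follows from the choice and does not check what the cells are. A level is given throughout as UMIs of the gene per 10000 UMIs of the same cells in 1 mouse. In sums over all kept cells, fewer cells of a type and less RNA per cell cannot be told apart.

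The CXC ligands were carried almost wholly by myeloid cells. Lymphoid cells held 7.874% of all UMIs but between 0.704% (*Cxcl1*) and 1.931% (*Cxcl16*) of the UMIs of any member other than *Cxcl14*, of which they held none. The C1qa ≥10 macrophages, with 33.15% of all UMIs, held 70.29% of *Pf4*, 49.30% of *Cxcl16* and 79.41% of the 68 *Cxcl14* UMIs. The C1qa ≤1 cells, with 38.42% of all UMIs, held 64.16% of *Cxcl3*, 54.89% of *Cxcl10* and 49.58% of *Cxcl2*. *Cxcl9* followed the distribution of all RNA more closely, with 37.73% and 41.92% in these sets. The *Ccr7*+ dendritic cells held 2.656% of all UMIs and 4.665% of *Cxcl16*, and a smaller share than that of all RNA of the other 7 members.

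**Figure D1:**
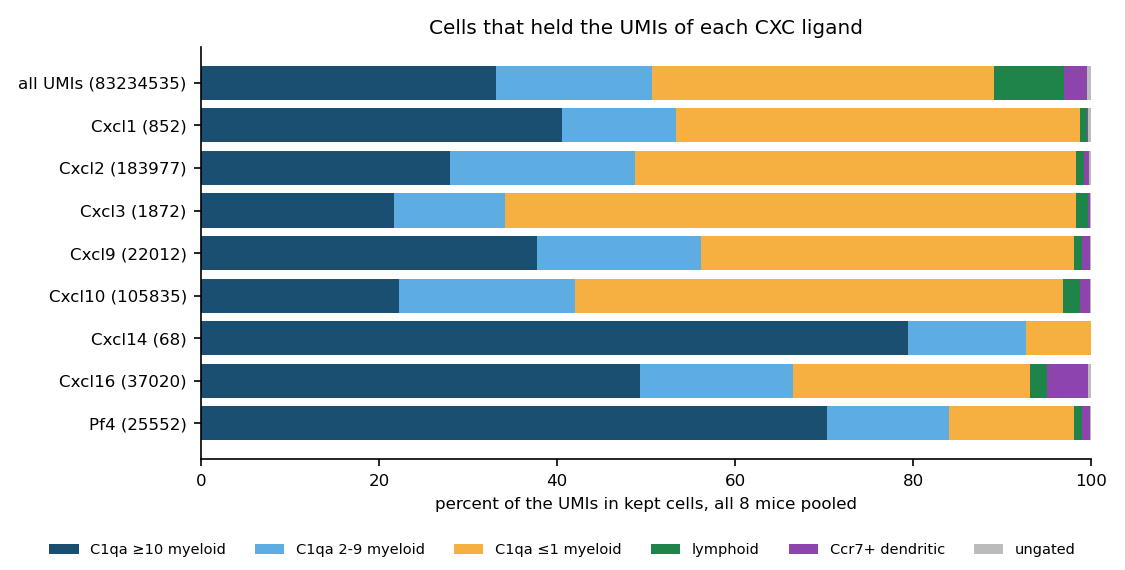
Horizontal bars give the percent of each gene's UMIs found in each set of kept cells, with the 8 mice pooled and the number of UMIs in parentheses, and the top bar gives the same for all UMIs. Lymphoid cells held 7.874% of all UMIs but at most 1.931% of those of any member, and C1qa ≥10 macrophages held 70.29% of *Pf4*, 79.41% of *Cxcl14* and 49.30% of *Cxcl16*.

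Few cells carried most of the RNA of some members. The top 10% of kept cells held a median over mice of 92.95% of *Cxcl9* UMIs, 87.58% of *Pf4*, 72.95% of *Cxcl10* and 64.05% of *Cxcl2*, against 40.73% of *Cxcl16*. For *Cxcl1* and *Cxcl3* the top 1% of cells already held 80.13% to 100% and 76.24% to 95.65%, over the 7 mice with enough UMIs. The single highest cell held 644 UMIs of *Cxcl2* (parental mouse 1), and 1 cell of E0771-Res1 mouse 2 held 343 of the 1872 *Cxcl3* UMIs of the study. Levels of *Cxcl1* and *Cxcl3* therefore rest on a small number of cells in each mouse.

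Which myeloid set carried each ligand was tested on UMIs summed per mouse and set, with edgeR's quasi-likelihood test, the mouse as a block and Benjamini-Hochberg adjustment over 9122 genes, called at an adjusted p under 0.05. Between C1qa ≥10 and C1qa ≤1 cells, 5 of the 7 members tested were called, where 51% of all genes were. *Pf4*, at 5.68 ± 2.95 (SD, n = 8 mice) against 1.04 ± 0.502, was higher in C1qa ≥10 cells by 2.36 ± 0.20 on the log2 scale (SE, adjusted p = 9.2e-12). *Cxcl16* was higher there by 1.04 ± 0.11 (adjusted p = 1.65e-09), with levels of 5.64 to 7.64 that lay above the 2.19 to 3.94 of the C1qa ≤1 cells in 8 of 8 mice. *Cxcl10* went the other way. Its C1qa ≥10 level of 8.50 ± 2.78 was below the C1qa ≤1 level of 18.4 ± 2.06 in 8 of 8 mice, a log2 change of -1.22 ± 0.23 (adjusted p = 4.1e-05).

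The CXCR2 ligands leaned the same way as *Cxcl10*. *Cxcl3* was lower in C1qa ≥10 cells by a log2 change of -1.40 ± 0.39 (adjusted p = 0.00313), in 6 of 8 mice, and without E0771-Res1 mouse 2 the change was -0.86 and not called (adjusted p = 0.0572). *Cxcl2* was at 19.7 ± 7.73 in C1qa ≥10 and 29.8 ± 14.9 in C1qa ≤1 cells, lower in the former in 7 of 8 mice (log2 change -0.64 ± 0.23, adjusted p = 0.0186). That call was lost in 3 of 14 alternative fits, with adjusted p up to 0.108, among them the fit without E0771-Res2 mouse 2 (0.0529). *Cxcl1* was also lower in C1qa ≥10 cells in 7 of 8 mice but was not called (log2 change -0.51, adjusted p = 0.18). *Cxcl9* did not take a side, being higher in C1qa ≥10 cells in 4 mice and lower in 4 (log2 change -0.06, adjusted p = 0.798).

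Mature dendritic cells, which present antigen to T cells, stood apart from C1qa ≤1 cells by *Cxcl16*, which was also high in C1qa ≥10 macrophages. Of the 7 members tested against C1qa ≤1 cells 6 were called, where 44.6% of all genes were, and *Cxcl16* was the only called member that was higher. Its level was 7.64 and 9.08 in the parental mice, 7.32, 6.93 and 7.79 in the E0771-Res1 line and 8.97, 8.68 and 7.36 in E0771-Res2 mice. These values exceeded those of C1qa ≥10 macrophages of the same mouse in 8 of 8 mice, which was not tested. The means were 7.97 ± 0.825 and 6.635 ± 0.58 (SD, n = 8), and the count includes mice with 8 and 9 dendritic cells. The log2 difference from C1qa ≤1 cells was 1.51 ± 0.13 (adjusted p = 9.88e-12). Dendritic sums of parental mouse 3 (8 cells) and E0771-Res1 mouse 2 (9 cells) were too small and were left out of that fit. *Cxcl2*, *Cxcl10* and *Cxcl9* were lower in dendritic cells by log2 changes of -2.40, -1.77 and -1.60 (adjusted p of 2.77e-05 or less), and *Cxcl1* (1 UMI) and *Cxcl3* (3 UMIs) were almost absent there. Relative to the pooled myeloid level, *Cxcl2*, *Cxcl9*, *Cxcl10* and *Pf4* stood at 20.2% to 38.6% in dendritic cells, while 6 macrophage markers outside the gate (*C1qb*, *C1qc*, *Apoe*, *Mrc1*, *Ms4a7*, *Trem2*) stood at 21.5% to 43.4%. The 4 ligands were thus within or below the range of these 6 genes there, and *Cxcl16*, at 168%, was above it. That range depends on the genes chosen. Of genes higher in C1qa ≤1 than in C1qa ≥10 cells, *Cd14* stood at 13.5% and *Il1b* at 53.1% in dendritic cells. The dendritic cell with most *Cxcl10* held 153 UMIs of it. Whether dendritic cells transcribe the 4 ligands was not tested.

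In lymphoid cells all 7 members tested were called against C1qa ≤1 cells, where 69.8% of all genes were, and all 7 were lower, by log2 changes from -1.70 (*Cxcl16*) to -4.07 (*Cxcl1*). With each cell thinned to 2500 UMIs, *Cxcl2* was still found in 13.6% to 32.8% of lymphoid cells, against 48.5% to 69.0% of C1qa ≤1 cells, and *Cxcl9* in 2.98% to 6.96% against 11.1% to 17.4%. Without thinning, *Cxcl2* was found in 45.95% to 64.38% of lymphoid cells (median depth 7449 UMIs) and 69.49% to 82.34% of C1qa ≤1 cells (6444 UMIs). The 6 macrophage markers stood in lymphoid cells at 9.31% to 18.7% of their myeloid level. *Cxcl1*, *Cxcl2*, *Cxcl3*, *Cxcl9* and *Pf4* lay within or below that range (8.10% to 16.0%), with *Cxcl3* at only 26 lymphoid UMIs. *Cxcl10* (21.7%) and *Cxcl16* (23.5%) lay just above it. Whether lymphocytes transcribe any of the 7 was not tested.

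**Figure D2:**
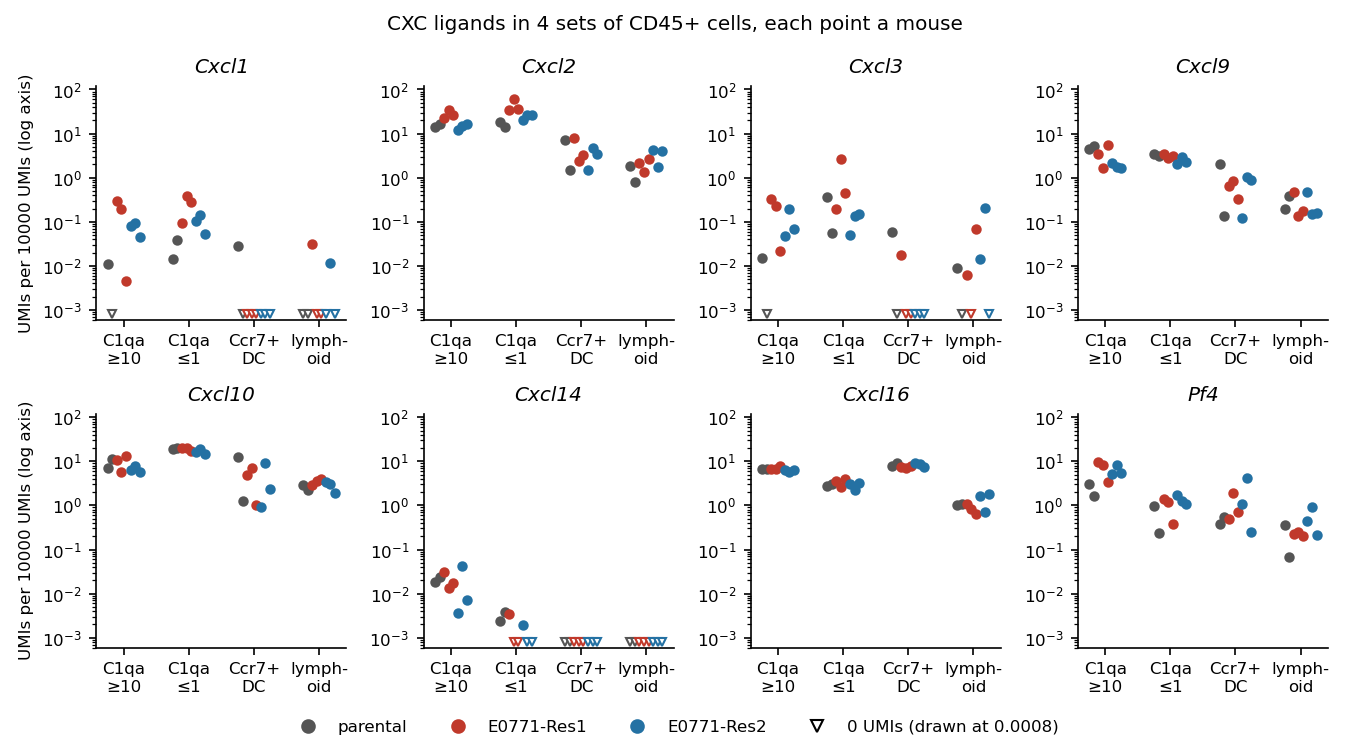
Each panel gives 1 gene as UMIs per 10000 UMIs on a log axis in 4 sets of cells, with 1 point for each of the 8 mice, colored by tumor line, and open triangles for mice with 0 UMIs. *Cxcl16* was highest in *Ccr7*+ dendritic cells (6.93 to 9.08), *Pf4* in C1qa ≥10 cells and *Cxcl10* in C1qa ≤1 cells, each in 8 of 8 mice among the 4 sets.

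The tumor lines were compared to ask whether relapse-derived tumors hold other chemokine RNA in their immune cells than parental ones. *Cxcl2* gave the clearest difference. In C1qa ≤1 cells its level was 18.5 and 14.4 in the parental mice, 34.6, 61.7 and 36.4 in mice of the E0771-Res1 line and 20.6, 26.7 and 25.7 in E0771-Res2 mice. The 3 groups did not overlap, with E0771-Res1 highest and parental lowest. How many of all genes separate the lines in such a way was not counted, here or for the members below. In C1qa ≥10 macrophages the levels were 14.4 and 16.2, then 22.2, 35.0 and 26.4, then 11.97, 15.1 and 16.3, so that E0771-Res1 again stood above the rest while parental and E0771-Res2 overlapped.

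One edgeR fit over the 3 lines was made in each set of cells, with called percentages over all genes given for each comparison. E0771-Res1 was higher than parental in *Cxcl2* by 1.45 ± 0.22 on the log2 scale in C1qa ≤1 cells (SE, adjusted p = 0.0204) and by 0.87 ± 0.16 in C1qa ≥10 cells (adjusted p = 0.0446). *Cxcl2* was the only one of the 7 members tested that was called in either set, where 0.0304% and 0.529% of all genes were called, while DESeq2 also called *Cxcl1* in C1qa ≤1 cells (3.29, adjusted p = 0.0286). Both rest on 2 parental mice, and the C1qa ≤1 call was lost with cells split by *C1qa* per 10000 UMIs (1.43, adjusted p = 0.067). Without parental mouse 1 the C1qa ≤1 change was 1.64 (adjusted p = 0.19) and without parental mouse 3 it was 1.28 (adjusted p = 0.569), while without E0771-Res1 mouse 2, the highest, it was 1.12 and still called (adjusted p = 0.0035). The C1qa ≥10 change was called in 9 of 16 alternatives, with adjusted p up to 0.185, and was not called without E0771-Res1 mouse 2 (0.69, adjusted p = 0.0773) or without any single E0771-Res2 mouse or parental mouse. The difference between the 2 increases, -0.53 ± 0.14 on the log2 scale, was not called (adjusted p = 0.217), and no member of 8 was called for this interaction, where 0.00979% of all genes were (744 of 10215 had an unadjusted p under 0.05), and DESeq2 called 0 members.

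Between the 2 relapse-derived lines *Cxcl2* was lower in E0771-Res2. The log2 change was -0.93 ± 0.14 in C1qa ≥10 cells (adjusted p = 0.00256) and -0.89 ± 0.18 in C1qa ≤1 cells (adjusted p = 0.0134). The first was called in 16 of 16 alternative fits, with log2 changes from -1.09 to -0.75. The second was called in 13 of 16 and lost by DESeq2 (adjusted p = 0.0625) and without E0771-Res2 mouse 1 (0.069) or mouse 3 (0.056). Of 7 members tested, 1 was called in C1qa ≥10 cells and 2 in C1qa ≤1 cells, where 3.65% and 4.41% of all genes were called. Against parental, E0771-Res2 was not distinguished in *Cxcl2*, at -0.06 ± 0.16 in C1qa ≥10 (adjusted p = 0.918) and 0.56 ± 0.21 in C1qa ≤1 cells (adjusted p = 0.147), and the difference between these 2 values was -0.60 ± 0.14 (adjusted p = 0.0895).

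Several marker sums differed between lines beside *Cxcl2*. The 23 C1qa ≤1 cells with at least 10 UMIs of neutrophil markers carried *Cxcl2* at 196 per 10000, and 7 of them came from E0771-Res1 mouse 2. Without these cells its *Cxcl2* level was 56.3 and those of the other E0771-Res1 mice 34.7 and 36.4. Summed genes of the dissociation stress response in C1qa ≤1 cells ran from 63.5 to 66.8 in parental mice, 64.9 to 80.0 in the E0771-Res1 line and 77.5 to 99.6 in E0771-Res2 mice. Monocyte markers in these cells were higher in parental mice (92.2 to 97.3) than in E0771-Res1 (66.2 to 79.7) and E0771-Res2 mice (63.3 to 78.8). The part of the dissociation and monocyte genes in the *Cxcl2* result was not tested.

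*Cxcl1* and *Cxcl3* were measured at far fewer UMIs, and neither was called against parental. *Cxcl1* had 32 UMIs in all kept cells of the parental mice, 541 in the E0771-Res1 line and 279 in E0771-Res2 mice, or levels of 0.0213 and 0.0220, then 0.159, 0.287 and 0.122, then 0.0780, 0.118 and 0.0392. Both parental mice lay below every mouse of the derivative lines, an order whose share among all genes was not counted. Its log2 difference from parental was 3.09 ± 0.53 in the E0771-Res1 line and 1.84 ± 0.56 in E0771-Res2, and neither was called (adjusted p = 0.0885 and 0.0863), although DESeq2 called the latter (1.85, adjusted p = 0.0485). *Cxcl3* in C1qa ≤1 cells was at 0.357 and 0.0549 in parental mice, 0.190, 2.65 and 0.458 in the E0771-Res1 line and 0.0497, 0.138 and 0.152 in E0771-Res2 mice. It was called lower in E0771-Res2 than in E0771-Res1 (log2 change -3.23 ± 0.77, adjusted p = 0.0259), although parental and both other groups overlapped. That value leaned on E0771-Res1 mouse 2, without which it was -1.48 (adjusted p = 0.132), and without its highest cell that mouse was at 1.21. The call was also lost without E0771-Res2 mouse 1 (adjusted p = 0.114) or mouse 3 (adjusted p = 0.0978) and by DESeq2 (adjusted p = 0.0724).

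**Figure D3:**
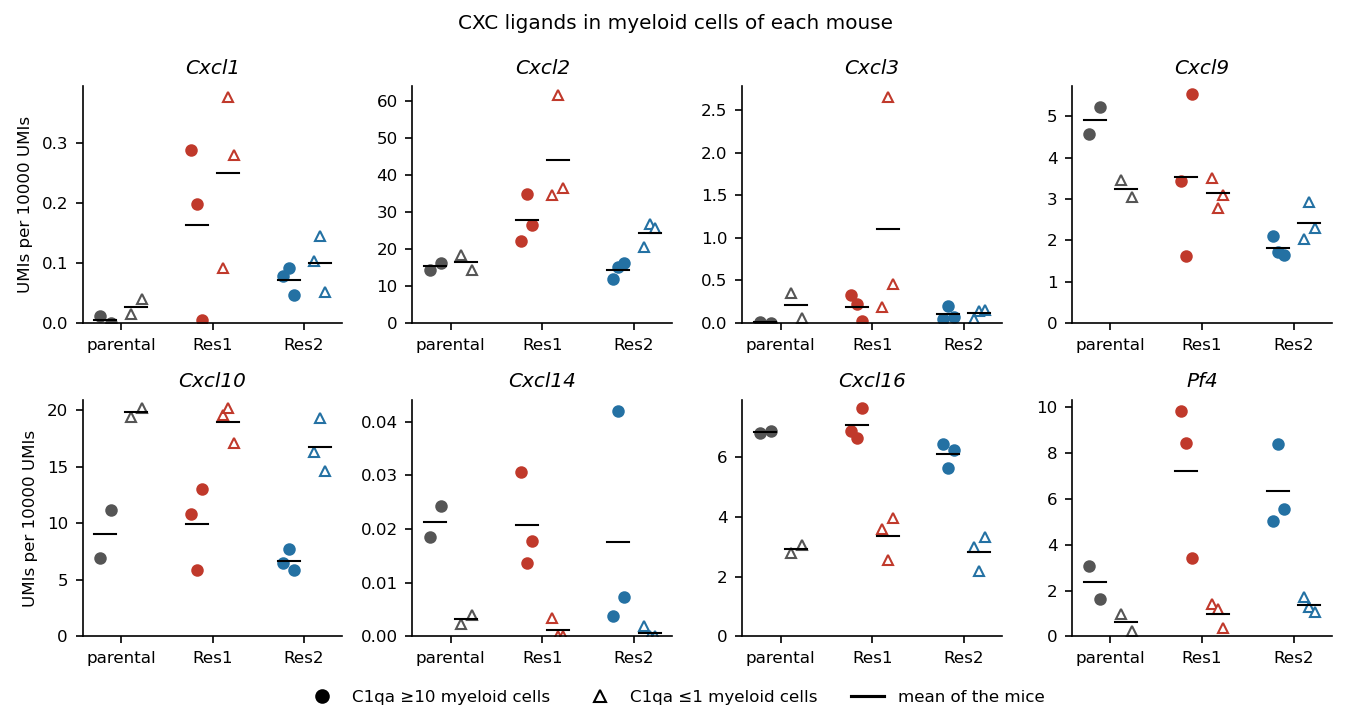
Each panel gives 1 gene as UMIs per 10000 UMIs in C1qa ≥10 (filled circles) and C1qa ≤1 myeloid cells (open triangles) of each mouse by tumor line, and short bars give the mean of the mice. The 3 E0771-Res1 mice had the highest *Cxcl2* in both sets, at 22.2 to 35.0 and 34.6 to 61.7, and the 3 E0771-Res2 mice had *Cxcl9* of 1.65 to 2.10 in C1qa ≥10 cells, below both parental mice.

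*Cxcl9* was the member called lower in E0771-Res2 than in parental mice. In C1qa ≥10 macrophages it was at 4.58 and 5.22 in the parental mice, 3.42, 1.63 and 5.53 in the E0771-Res1 line and 2.10, 1.72 and 1.65 in E0771-Res2 mice. Every E0771-Res2 mouse lay below both parental mice, and the E0771-Res1 mice spanned the whole range. Few cells carried these levels. The top 1% of cells held 16.55% and 17.83% of the *Cxcl9* UMIs in parental and 60.87%, 48.22% and 32.84% in E0771-Res2 mice. In E0771-Res1 mouse 2, 1 cell held 54.01% of 237 UMIs. The log2 change from parental to E0771-Res2 was -1.39 ± 0.31 (adjusted p = 0.032), and *Cxcl9* was the only one of 7 members called, where 1.94% of all genes were. In C1qa ≤1 cells the change was -0.43 ± 0.14 (adjusted p = 0.0874), with 0 of 7 members called where 4.51% of all genes were, and 1905 of 9880 genes had an unadjusted p under 0.05, while DESeq2 also called 0 members. By DESeq2 the C1qa ≥10 change was -1.41 and not called (adjusted p = 0.113). The difference between the 2 changes was -0.91 ± 0.29 and not called (adjusted p = 0.27), as for the other 7 members in this comparison, where 0.147% of all genes were called (884 of 10215 at an unadjusted p under 0.05). DESeq2 called 1 member there, *Cxcl2* (-0.63, adjusted p = 0.0349).

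Over all kept cells *Cxcl9* was at 3.68 and 3.27 in parental mice, 3.02, 2.16 and 4.07 in the E0771-Res1 line and 1.94, 1.99 and 1.68 in E0771-Res2 mice. The E0771-Res2 mice lay below all others. The log2 change was -0.89 ± 0.18 from parental (adjusted p = 0.0201) and -0.73 ± 0.17 from E0771-Res1 (adjusted p = 0.0325). *Cxcl9* was the 1 of 8 members called in the former comparison (4.37% of all genes) and 1 of 2 in the latter (4.2%), beside *Cxcl2* (-0.88 ± 0.21, adjusted p = 0.0375). Calls were lost without parental mouse 1, parental mouse 3, E0771-Res2 mouse 1 or E0771-Res2 mouse 3, with adjusted p of 0.166, 0.128, 0.058 and 0.0961 for *Cxcl9* against parental, and in C1qa ≥10 cells without any 1 parental or E0771-Res2 mouse (adjusted p from 0.0729 to 0.25). Against E0771-Res1, the *Cxcl9* change was -0.47 without E0771-Res1 mouse 3 (adjusted p = 0.0702), and the *Cxcl2* call was lost without parental mouse 1 or 3 or E0771-Res2 mouse 1 or 3 (adjusted p from 0.067 to 0.126) and by DESeq2 (adjusted p = 0.0755). Between E0771-Res1 and parental no member of 8 was called over all kept cells, where 0.0353% of all genes were, while 1189 of 11326 genes had an unadjusted p under 0.05 (*Cxcl2* 1.27 ± 0.24, adjusted p = 0.102). DESeq2 called 69 genes in this comparison against 4 by edgeR, and *Cxcl2* was among them (1.27, adjusted p = 0.0274).

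The C1qa ≥10 cells of E0771-Res2 were shallower, with a median of 7236 to 9064.5 UMIs against 10320 to 10471 in parental mice, and carried more macrophage marker RNA, at 167.1 to 178.3 per 10000 against 132.8 to 140.5. The part of either in the *Cxcl9* result was not tested. The share of C1qa ≥10 cells with *Cxcl9* at 2500 UMIs a cell was 23.1% in parental mice, 18.6% in the E0771-Res1 line and 11.6% in E0771-Res2 mice, as means over the mice. For *Cxcl10* the same means were 44.6%, 44.3% and 33.7%, so its share was also lowest in E0771-Res2.

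*Cxcl10*, which shares its receptor with *Cxcl9*, was not called between lines in any set of cells tested. Over all kept cells it was at 13.3 and 16.0 in parental mice, 13.0, 14.3 and 15.9 in the E0771-Res1 line and 10.3, 13.6 and 9.98 in E0771-Res2 mice. Apart from 2 lower E0771-Res2 mice, all mice lay between 13.0 and 16.0. The log2 change was -0.02 ± 0.14 in the E0771-Res1 line and -0.38 ± 0.14 in E0771-Res2 against parental (adjusted p = 0.992 and 0.162). In C1qa ≤1 cells, 7 of 8 mice lay between 16.4 and 20.2 and E0771-Res2 mouse 3 at 14.7. The log2 change from parental to E0771-Res2 there was -0.25 ± 0.12 (adjusted p = 0.277). The mean over the 8 mice was highest in this set, at 18.4, against 16.1 in myeloid cells with 2 to 9 *C1qa* UMIs. Levels in the latter cells spread more widely, from 9.19 to 27.3, so C1qa ≤1 cells were not the highest in every mouse. Lines were not tested in the cells with 2 to 9 *C1qa* UMIs.

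Of the remaining ligands, *Cxcl16* varied least. In C1qa ≥10 macrophages it was at 6.82 ± 0.0431 in parental mice (SD, n = 2), 7.05 ± 0.532 in E0771-Res1 (n = 3) and 6.097 ± 0.409 in E0771-Res2 mice (n = 3). The E0771-Res2 mice, at 5.64 to 6.43, lay just below the others, and the log2 changes were 0.06 ± 0.10 for E0771-Res1 and -0.13 ± 0.10 for E0771-Res2 against parental (adjusted p = 0.868 and 0.576). With each cell thinned to 2500 UMIs it was found in 72.65% to 80.85% of C1qa ≥10 cells and 73.58% to 85.00% of *Ccr7*+ dendritic cells of each mouse.

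*Pf4* did not pass the test in either derivative line. In C1qa ≥10 macrophages it was at 3.07 and 1.65 in parental mice, 9.86, 8.42 and 3.41 in the E0771-Res1 line and 5.05, 8.40 and 5.57 in E0771-Res2 mice. All 6 mice of the derivative lines lay above both parental mice, an order whose share among all genes was not counted. The log2 difference was 1.60 for E0771-Res1 (adjusted p = 0.0643) and 1.42 for E0771-Res2 (adjusted p = 0.0618), and it was called in 5 of 16 alternative fits in each. Of megakaryocyte and platelet genes, *Ppbp* had 120 UMIs in all kept cells (56 in C1qa ≥10 cells), *Itga2b* 6, *Treml1* 5 and *Gp1ba*, *Gp1bb* and *Gp9* 0, and all listed megakaryocyte and platelet genes summed to at most 0.0274 per 10000 in any mouse. Their part in the *Pf4* values was not tested. *Cxcl14* had 11 UMIs in parental mice, 32 in the E0771-Res1 line and 25 in E0771-Res2 mice, 54 of the 68 in C1qa ≥10 cells, and no line difference was detectable at this depth (log2 change 0.35 ± 0.90 and -0.07 ± 0.92 against parental, adjusted p = 0.947 and 0.983).

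**Figure D4:**
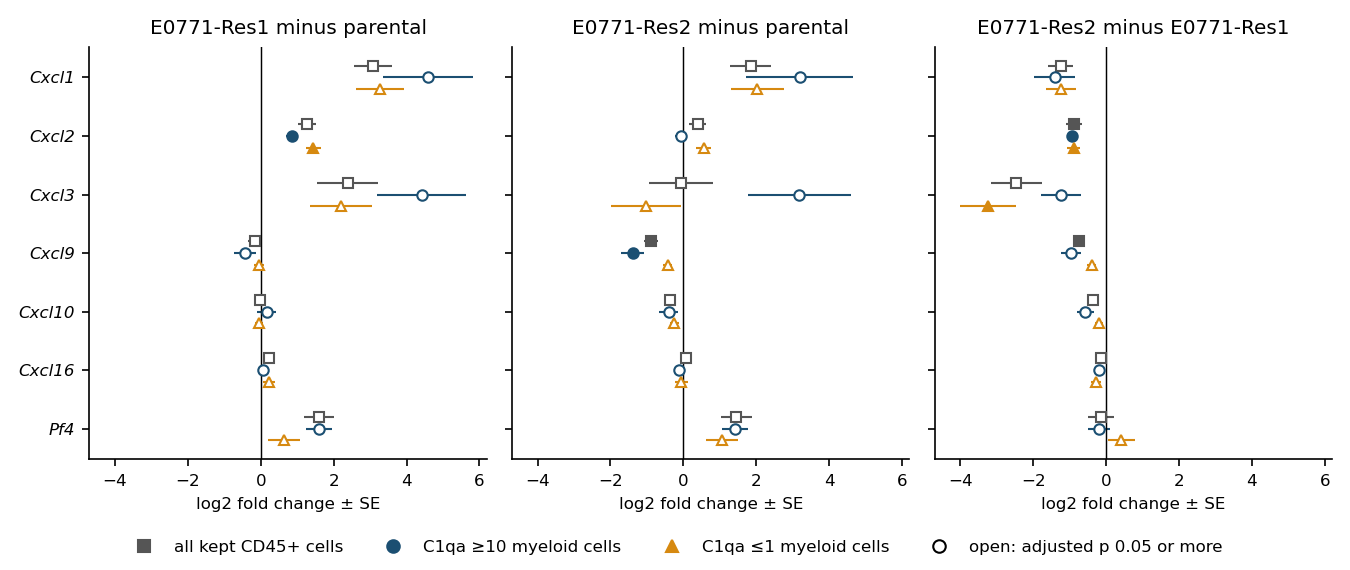
Points give the log2 fold change with its SE for each member found, other than *Cxcl14*, in 3 comparisons of tumor lines and 3 sets of cells, filled where the adjusted p was under 0.05. *Cxcl2* was filled for E0771-Res1 against parental in both myeloid sets (0.87 and 1.45) and for E0771-Res2 against E0771-Res1 in all 3 sets, *Cxcl9* for E0771-Res2 in all kept cells (-0.89 and -0.73) and C1qa ≥10 cells (-1.39), and *Cxcl10*, *Cxcl16* and *Pf4* nowhere.

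In lymphoid and *Ccr7*+ dendritic cells no member was called between lines, from fewer cells and, for the latter, fewer mice. In lymphoid cells 0 of 5 members were called in each comparison, where 0%, 0.096% and 0.288% of all genes were for E0771-Res1 against parental, E0771-Res2 against parental and E0771-Res2 against E0771-Res1 (335, 511 and 513 of 7294 genes at an unadjusted p under 0.05), and DESeq2 called 0 members too. *Cxcl2* in lymphoid cells was at 1.86 and 0.780 in parental mice, 2.15, 1.32 and 2.65 in the E0771-Res1 line and 4.33, 1.79 and 4.12 in E0771-Res2 mice (log2 change to E0771-Res2 1.29 ± 0.34, adjusted p = 0.236). Macrophage markers in the same lymphoid cells were also highest in E0771-Res2, at 15.4 to 22.5 per 10000 against 9.22 to 11.8 in parental and 7.49 to 12.6 in E0771-Res1 mice. In *Ccr7*+ cells, where only parental mouse 1 and E0771-Res1 mice 1 and 3 had at least 10 cells beside the 3 E0771-Res2 mice, 0 of 5 members were called, against 0.0433%, 0.108% and 0.0649% of all genes (264, 295 and 249 of 4623 at an unadjusted p under 0.05, and 0 members by DESeq2). The lone parental mouse is assumed there to vary like the others, so the absence of calls against parental says little. *Cxcl16* differed in these cells by 0.09 ± 0.23 and 0.20 ± 0.22 on the log2 scale against parental (adjusted p = 0.985 and 0.922). For the comparison of E0771-Res2 with E0771-Res1 between the 2 myeloid sets, 0 of 8 members were called, where 0.157% of all genes were (706 of 10215 at an unadjusted p under 0.05), and 0 by DESeq2.

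The receptors of the T cell ligands were highest in lymphoid cells. *Cxcr3*, the receptor of CXCL9 and CXCL10, was at 0.508 ± 0.145 in lymphoid cells (SD, n = 8) and found in 26.44% of them, against 1.79% of C1qa ≤1 and 4.73% of C1qa ≥10 cells, a log2 difference from C1qa ≤1 cells of 3.71 ± 0.18 (adjusted p = 9e-19). *Cxcr6*, the receptor of CXCL16, was at 1.55 ± 0.642 in lymphoid cells, in 39.24% of them against 1.87% of C1qa ≤1 cells (log2 difference 5.04 ± 0.18, adjusted p = 4.04e-22). These shares were not thinned, and median depths were 7449 UMIs in lymphoid, 6444 in C1qa ≤1 and 9703 in C1qa ≥10 cells. As a level, *Cxcr3* was at 0.0312 in C1qa ≤1 and 0.0475 in C1qa ≥10 cells. Of 649 *Cxcr3* UMIs, 318 lay in lymphoid cells and 148 in C1qa ≥10 cells. *Cxcr2* had 66 UMIs in all 10605 cells, 39 of them in C1qa ≤1 cells and 0 in lymphoid cells, *Cxcr1* 2, and the scavenging receptors *Ackr1* and *Ackr3* 11 and 13. *Cxcr4*, the receptor of CXCL12, was lower in lymphoid than in C1qa ≤1 cells (-1.19, adjusted p = 1.65e-13), and *Cxcr5*, the receptor of CXCL13, was highest in *Ccr7*+ dendritic cells, in 11.21% of cells.

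Between lines, *Cxcr6* was the only one of the listed receptors called. Alternative fits were read for members only, so its calls were not checked in that way. Over all kept cells *Cxcr6* was lower in E0771-Res2 than in parental mice (log2 change -0.97 ± 0.18, adjusted p = 0.0108) and E0771-Res1 mice (-1.05 ± 0.15, adjusted p = 0.00367). In these comparisons 4.37% and 4.2% of all genes were called. Within lymphoid cells the change from E0771-Res1 was -1.11 ± 0.22 (adjusted p = 0.0409) and from parental -0.85 ± 0.25 (adjusted p = 0.413), where 0.288% and 0.096% of all genes were called. Lymphoid cells made up 3.825% to 7.332% of kept cells in E0771-Res2 against 7.273% and 10.071% in the 2 parental mice. *Cxcr3* did not differ detectably in lymphoid cells (0.26 ± 0.32 in E0771-Res2 and 0.21 ± 0.32 in E0771-Res1 against parental, adjusted p = 0.941 and 1). The sheddases *Adam10* and *Adam17* were not called in any comparison of lines, and *Adam17* was lower in *Ccr7*+ dendritic (-0.93 ± 0.17) and lymphoid cells (-1.33 ± 0.11) than in C1qa ≤1 cells.

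Other genes of the same pathways were counted from lists written for this purpose, with earlier results of these data known. The counts therefore describe the listed genes and give no independent support for the *Cxcl9* or *Cxcl2* results. Of 17 tested genes of the interferon-γ response list, 9 were called over all kept cells of E0771-Res2 against parental, where 4.37% of all genes were, and all 9 were lower, with a list median of -0.53 on the log2 scale against 0.01 over all genes. *Gbp2* (-0.996 ± 0.144), an interferon-induced GTPase, *Ciita* (-0.80 ± 0.16), the regulator of MHC class II genes, and *Gbp5* (-0.69 ± 0.10) changed most. In C1qa ≥10 cells, 9 of 16 were called, where 1.94% of all genes were. All 9 were lower (list median -0.71), led by *Ciita* (-1.61 ± 0.23), *Gbp2* (-0.97 ± 0.14) and *Iigp1* (-0.92 ± 0.18). For E0771-Res1 against parental the list median was also below 0 in these cells (-0.52), with 2 of 16 called (0.529% of all genes), *Irf1* (-0.84 ± 0.14) and *Gbp2* (-0.77 ± 0.14).

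Of the 18 listed NF-κB and early inflammatory genes none was called between E0771-Res1 and parental in any of the 5 sets of cells, where 0% to 0.529% of all genes were (0.0304% in C1qa ≤1 cells), and their median in C1qa ≤1 cells was 0.40 on the log2 scale. Between E0771-Res2 and E0771-Res1, 7 of 18 were called in C1qa ≤1 cells, where 4.41% of all genes were, all lower, with *Il1a* (-1.76 ± 0.34), *Ptgs2* (-1.18 ± 0.19) and *Il1b* (-0.93 ± 0.13) changing most. In C1qa ≥10 cells 4 of 18 were called and lower, where 3.65% of all genes were called, among them *Nlrp3* (-0.95 ± 0.20), *Ptgs2* (-0.67 ± 0.14) and *Il1b* (-0.66 ± 0.11). *Il1b* and *Il1a* encode interleukin 1, *Ptgs2* cyclooxygenase 2 and *Nlrp3* an inflammasome sensor. In E0771-Res2 against parental, *Il1b* was lower in C1qa ≤1 cells (-0.81 ± 0.14) and *Ccl4*, an inflammatory chemokine, higher (0.70 ± 0.17). The 3 comparisons share mice, and nothing is read from the lists against each other.

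Within single cells thinned to 2500 UMIs, some ligands were found together. Among C1qa ≤1 cells with *Cxcl10*, a median over mice of 19.07% also held *Cxcl9*, against 10.22% of cells without, higher in 8 of 8 mice. *Cxcl3* was found in 2.04% of cells with and 0.421% without *Cxcl2*, and *Cxcl1* in 1.19% and 0.180%, both higher with *Cxcl2* in 8 of 8 mice. *Cxcl2* itself was found in 59.75% of cells with *Cxcl9* and 65.22% of cells without, higher in 2 of 8 mice. In C1qa ≥10 cells *Cxcl9* was found in 18.91% of cells with *Cxcl10* against 13.86% (6 of 8 mice). There *Cxcl3* and *Cxcl1* were higher with *Cxcl2* in only 6 and 5 of 8 mice. Pairs with different receptors also rose in C1qa ≤1 cells. *Pf4* was found in 13.98% of cells with *Cxcl16* and 7.579% without (8 of 8 mice). With *Cxcl2* it was found in 10.8% and without in 8.536% (7 of 8 mice). The shares thus do not sort the ligands by receptor. Cells of 1 mouse are not replicates, and these shares carry no test.

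Over the 30 sums of a mouse and a set of cells, the genes most like each ligand were ranked by Pearson's r of log2 scaled counts, as a description of sums that share mice and depth. *Cxcl1* and *Cxcl3* were each other's nearest gene (r = 0.834), followed by *Cd33* for the former and *Tkt* for the latter (both 0.777). Lymphoid cells held 6 UMIs of *Cxcl1* and 26 of *Cxcl3*, and *Ccr7*+ cells 1 and 3. The r values of these genes therefore rest in part on sums near the floor. *Cxcl2* was closest to *Ninj1* (0.955), *Pilra* and *Msr1*, and *Cxcl16* to *Cd63* (0.972), *Ctsh* and *Tubb2a*, of which *Cd63* and *Ctsh* encode lysosomal proteins. *Cxcl10* was closest to *Ifit3* (0.931), *Ifi205* and *Ltb4r1*, the first 2 being interferon-induced, *Cxcl9* to *Sap30* (0.936), *Ms4a6c* and *Ifi207*, and *Pf4* to *Dab2* (0.893), *Fmn1* and *Slc27a1*. Next in rank for *Cxcl1* was *Ap2a2* (0.770).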

How the data were processed

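CD45+ cells of the tumors, 8 of which were analysed here, were labeled with multiplexing oligonucleotides, pooled and sequenced as 3′ single-cell libraries. The authors deposited 1 table of UMI counts by gene and cell per mouse, made with Cell Ranger 6.1.2 per the file headers, and mm10 and Seurat are named in the submitters' processing notes. The deposited counts were not normalized or corrected for free RNA here. The multiplexing tags (9 features) stayed out of library sizes, and whether multiplets were removed before deposit is not given in the sources used here. No doublet caller was run, and removal of the 5% of cells with most UMIs was tried instead.

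Cells with 500 to 6000 genes and under 10% mitochondrial counts were kept. Lymphoid cells had at least 3 UMIs of lymphoid genes and more than of myeloid genes, *Ccr7*+ dendritic cells at least 2 *Ccr7* UMIs and 1 *Fscn1* UMI, and myeloid cells at least 3 UMIs of myeloid genes or 2 of dendritic genes. UMIs were summed per mouse and set of cells, with sums of under 10 cells left out. The sums were tested with edgeR 4.0.16 in R 4.3.3 (TMM, filterByExpr, quasi-likelihood test), mitochondrial, ribosomal protein and Gm genes excepted (8636 left out, 23649 for tests). Benjamini-Hochberg adjustment ran over all genes tested, and calls had an adjusted p under 0.05. DESeq2 1.42.0 was an alternative. The edgeR fit was also run on simulated data with known changes, and DESeq2 was not. Shares of cells with a member were set, where so stated, on 2500 UMIs drawn from each cell. That left out 1217 of 10605 kept cells as too shallow (676 of the C1qa ≤1, 14 of the C1qa ≥10, 38 of the lymphoid and 5 of the *Ccr7*+ cells). Shares of cells with a receptor were counted without thinning. Counts give counting error only through their number, and p-values rest on the spread between mice.

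The members, gene lists and tests were chosen with earlier results of these data known. All members were named, with every receptor and sheddase, at most 3 called genes of each other list by size of change, 3 genes most like each member with at least 100 UMIs (1 of these is not reported here), and single markers that check the sets of cells. Other settings left out each mouse in turn and changed the size factors, the filter on low counts, the cells and the *C1qa* split.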

Additional observations from a re-analysis of the deposited data

Results flagged for a closer look

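Values of a gene in a set of cells were compared over the mice of all 3 lines for 1 far from the others. Of 31 such comparisons 6 held one, at a cutoff of nominally 1 in 20. That rate is no measure of chance here, because the lines were pooled and all kept cells include the C1qa ≤1 cells. *Cxcl2* was at 48.93 per 10000 in all kept cells of E0771-Res1 mouse 2 (next 28.33) and at 61.65 in its C1qa ≤1 cells (next 36.39). *Cxcl3* in the same mouse was at 1.383 in all kept cells (next 0.2313) and at 2.653 in C1qa ≤1 cells (next 0.4579), where 1 cell held 343 of 626 UMIs. *Pf4* stood apart in E0771-Res2 mouse 2, at 0.9003 in lymphoid cells (next 0.4329), with 37 of 79 UMIs in 1 cell, and at 4.173 in *Ccr7*+ dendritic cells (next 1.106, n = 6 mice with at least 10 such cells), with 108 of 112 UMIs in 1 of 33 cells.

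The 172 kept cells that no set took, with 308939 UMIs and a median of 1110 to 1554 UMIs per cell in each mouse, also held members. They carried 329 UMIs of *Cxcl2* (10.65 per 10000), 140 of *Cxcl10* (4.532), 105 of *Cxcl16* (3.399), 29 of *Cxcl9* (0.9387) and 24 of *Pf4* (0.7769).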

How the results depend on the processing

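Counts below are member calls summed over the 3 line comparisons, which were 3 in all kept cells, 3 in C1qa ≥10, 3 in C1qa ≤1, 0 in lymphoid and 0 in *Ccr7*+ cells, and 0 for the interaction. Testing every gene with at least 1 count gave 13, 15, 14, 5, 8 and 10. That fit put *Cxcl3* at an adjusted p of 1.55e-101 between E0771-Res2 and E0771-Res1 in C1qa ≤1 cells, although the E0771-Res1 mice ranged from 0.190 to 2.65. No result was read from it alone, but it is counted in the tallies of alternative fits above. DESeq2 gave 1 for the interaction. With *C1qa* per 10000 UMIs as the split the counts were 5 in C1qa ≥10 and 1 in C1qa ≤1 cells. Of 2 settings chosen after seeing the data, leaving out the 5% of cells with most UMIs gave 6 in C1qa ≥10, 5 in C1qa ≤1, 1 in lymphoid cells and 2 for the interaction, and leaving out myeloid cells with lymphoid gate UMIs gave 6 in C1qa ≤1 cells. Leaving out each mouse in turn gave 0 to 7 in all kept, 1 to 11 in C1qa ≥10, 1 to 6 in C1qa ≤1, 0 to 3 in lymphoid and 0 to 1 in *Ccr7*+ cells and 0 to 2 for the interaction, and 4 to 6, 5 to 7 and 7 to 7 for C1qa ≥10, *Ccr7*+ and lymphoid against C1qa ≤1 cells. The fit in *Ccr7*+ cells without parental mouse 1 could not be made. The cause of these shifts was not tested, and no member changed direction while called. RLE size factors and all deposited cells kept all 27 member calls.

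With the replicate block the counts were 9 in all kept, 6 in C1qa ≥10, 6 in C1qa ≤1, 1 in lymphoid and 6 in *Ccr7*+ cells, and all 9 line calls were kept. Deviations of mice with the same number from their group means were not correlated (-0.04 to 0.065). With 2 or 3 mice in a group this cannot decide whether the numbers mark a pairing.

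Counts over all genes moved by over 1.5 times mainly for E0771-Res1 against parental. In all kept cells 4 became 69 by DESeq2, 244 without the filter and 41 with the replicate block, in C1qa ≤1 cells 3 became 39, 199 and 29, and in C1qa ≥10 cells 50 became 79 by DESeq2 and 427 without the filter. For E0771-Res2 against E0771-Res1 in C1qa ≥10 cells 345 became 212 by DESeq2 and 180 without myeloid cells with lymphoid gate UMIs. In C1qa ≤1 cells the *C1qa* per 10000 split gave 185 against 446 genes for E0771-Res2 against parental and 197 against 436 against E0771-Res1. Without the filter, E0771-Res2 gave 978 against 495 genes over all kept cells. With 2 parental mice and few UMIs of *Cxcl1*, *Cxcl3* and *Cxcl14*, differences of these members from parental were at the limit of what this depth shows.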

Other observations

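The C1qa ≤1 cells were a mixture, and the ligands differed between its parts. The 15 cells with at least 2 UMIs of the cross-presenting dendritic genes *Xcr1* and *Clec9a* carried *Cxcl9* at 32.69 per 10000 (650 UMIs) and *Cxcl2* at 0.805. The 23 cells with at least 10 UMIs of neutrophil markers carried *Cxcl2* at 195.8 (2334 UMIs) and *Cxcl3* at 1.51. In the 3875 cells with at least 5 UMIs of monocyte markers, *Cxcl10* was at 19.72, *Cxcl2* at 27.34 and *Pf4* at 0.870, against 5.427, 34.5 and 3.461 in the 899 remaining cells. Monocyte-marker cells made up 89.12% to 90.84% of C1qa ≤1 cells in parental mice, 82.14% to 83.22% in the E0771-Res1 line and 71.9% to 78.76% in E0771-Res2 mice. These are pooled sums with no test, and a subset of 15 or 23 cells holds at most a few cells of any mouse.

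Other ligands of the family were nearly absent from the sorted cells, with 120 UMIs of *Ppbp*, 31 of *Cx3cl1*, 8 of *Cxcl13*, 3 of *Cxcl12*, 2 of *Cxcl5* and 0 of *Cxcl15* and *Cxcl17*.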
